A study of Mus musculus with 3 samples.

Results

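The 8 genes described here belong to a pair of lipid and peptide signalling systems that start and end inflammation: annexin A1 (Anxa1), the formyl peptide receptors Fpr1 and Fpr2, and the leukotriene and lipoxygenase enzymes Alox5, Alox5ap, Alox15, Lta4h and Ltc4s. They were chosen by symbol, and all 8 were found once each among the 19070 probe-measured features. Their unique transcript counts (UMIs) were summed by cell class and library. The mice, C57BL/6J females of postnatal day 50, had a splinted 5 mm wound through the back skin, and the wound with a 2 mm margin was taken at day 5. The wound called untreated here is titled Sham, and its labels name no gel. The GelMA wound received 20 µL of gelatin methacryloyl cured for 1 min under ultraviolet light, and the AN-GelMA wound received the gel loaded with apoptotic neutrophils. Wounding, splint, strain, sex and age were shared by the 3 groups. Each group was 1 library of fixed, probe-labelled single cells. The number of mice in a library and the source of the loaded neutrophils are not stated, so animal and treatment cannot be told apart, and neither can RNA of loaded and host neutrophils. The files of the AN-GelMA library carry the word "Heat", whose meaning is not given.

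As background, 5-lipoxygenase (Alox5) and its helper FLAP (Alox5ap) turn arachidonic acid into the unstable leukotriene A4. Leukotriene A4 hydrolase (Lta4h) makes from it leukotriene B4, which attracts neutrophils, whereas leukotriene C4 synthase (Ltc4s) joins it to glutathione and opens the cysteinyl leukotriene branch. Alox15 oxygenates the same fatty acids and takes part in the synthesis of lipoxins. Annexin A1 is a calcium-dependent phospholipid-binding protein that is induced by glucocorticoids, limits neutrophil entry, promotes the uptake of apoptotic cells and signals through Fpr2, while Fpr1 and Fpr2 also sense bacterial and mitochondrial formyl peptides on neutrophils and monocytes.

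The libraries held 6073, 11449 and 9648 barcodes for the untreated, GelMA and AN-GelMA wounds, with medians of 1125, 1485 and 1134 UMIs, and 5721, 10687 and 9094 cells were kept. Pairs of libraries shared 94 to 135 barcode sequences. Cell classes are named from markers and mean cells like that class. Levels are UMIs of a gene scaled to the class total (CPM), values are given in the order untreated, GelMA, AN-GelMA, and brackets hold 95% intervals that cover counting error only. A level was called higher or lower where it differed by 1.5-fold or more. There is no replicate and hence no test: a call compares libraries, not treatments. In such pools fewer positive cells and less RNA per cell cannot be told apart.

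Promoter sequences were at hand for 6 of the 8 genes (RefSeq, GRCm38.p6, 250 bases before to 50 bases after the start site). Those of 3 leukotriene enzymes are shown because Alox5 and Ltc4s proved to share a cell type while Lta4h was present in every class. Capitals mark GAGGAA, a longer form of the ETS core GGAA that is read by the myeloid factor PU.1 among others, and the GC box GGGCGG, on either strand. Other GGAA sites are not marked or counted. The windows are chr6:116461129-116461428 (minus strand) for Alox5, chr11:50238483-50238782 (minus strand) for Ltc4s and chr10:93453146-93453445 (plus strand) for Lta4h.
Alox5: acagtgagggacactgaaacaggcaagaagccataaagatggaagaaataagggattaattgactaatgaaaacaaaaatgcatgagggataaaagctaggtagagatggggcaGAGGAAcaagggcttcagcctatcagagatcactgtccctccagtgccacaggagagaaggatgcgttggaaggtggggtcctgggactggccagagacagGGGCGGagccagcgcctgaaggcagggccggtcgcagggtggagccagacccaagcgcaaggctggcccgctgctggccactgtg
Ltc4s: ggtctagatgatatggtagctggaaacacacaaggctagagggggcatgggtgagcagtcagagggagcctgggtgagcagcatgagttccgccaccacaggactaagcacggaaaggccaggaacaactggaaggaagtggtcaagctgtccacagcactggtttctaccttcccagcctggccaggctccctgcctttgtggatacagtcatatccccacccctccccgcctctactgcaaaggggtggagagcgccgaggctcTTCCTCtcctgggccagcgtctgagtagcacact
Lta4h: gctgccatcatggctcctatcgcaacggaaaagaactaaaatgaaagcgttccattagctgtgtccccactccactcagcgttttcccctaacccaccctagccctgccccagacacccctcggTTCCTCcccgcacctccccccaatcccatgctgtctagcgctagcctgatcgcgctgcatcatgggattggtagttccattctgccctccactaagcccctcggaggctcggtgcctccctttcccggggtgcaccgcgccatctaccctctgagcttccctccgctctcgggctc
The Alox5 window held 1 GAGGAA, 136 bases before the start site, and 1 GC box, 35 bases before it. The Ltc4s window held 1 GAGGAA at base 17 after the start and the Lta4h window 1 at 126 bases before it. Of 32851 promoter windows of this length, 28.3% held GAGGAA and 35.7% the GC box. GC content was 55.7% for Alox5, 58.7% for Ltc4s and 60.7% for Lta4h, with 7, 6 and 16 CpG sites, against a median of 52.7% and 7 sites over all windows. The Anxa1 window (chr19:20390622-20390921, minus strand) held TATAAA 32 bases before the start, a motif found in 13.6% of windows, and its GC content was 47.3%. Fpr1 and Fpr2 start 3885 bases apart on chromosome 17 and are read in opposite directions away from each other.

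Annexin A1 gave 11432 UMIs in the kept cells. Keratinocytes held 52.3%, 41.0% and 55.0% of them by library. Hair-forming cells held 3.10%, 49.5% and 0.105%, fibroblasts 13.1%, 2.37% and 18.3%, and macrophages 13.5%, 0.993% and 14.9%, so hair-forming cells held much of it in GelMA and little elsewhere. These shares also carry class size. Keratinocytes were 38.2%, 41.0% and 40.8% of the cells and hair-forming cells 3.74%, 27.25% and 0.759%. Fibroblasts were 18.9%, 6.52% and 22.25% and macrophages 11.45%, 3.62% and 16.95%. In macrophages the level of Anxa1 was 426.5, 150 and 355 CPM. The untreated and AN-GelMA libraries were thus high and the GelMA library low: the AN-GelMA level was 1.24 log2 units above GelMA [0.83 to 1.68], the log2 ratio of GelMA over untreated was -1.504 [-1.955 to -1.08], and AN-GelMA differed from the untreated wound by -0.26 [-0.46 to -0.06]. A UMI was seen in 20.5%, 8.27% and 18.6% of macrophages, and in 18.6%, 7.23% and 16.3% once each cell was thinned to 800 UMIs, which left out shallower cells. Fibroblasts had 243, 162 and 286 CPM and blood endothelial cells 115, 57.9 and 139 CPM, so GelMA was again the lowest, with AN-GelMA above it by 0.82 [0.54 to 1.11] and 1.26 [0.53 to 2.03] on the log2 scale. Over all fibroblast features the median of that ratio was -0.12. The clusters that make up the fibroblasts differed in size between libraries: the Nos2 and Saa3 cluster was 188 of 1083, 17 of 697 and 384 of 2023 cells and had 272, 99.1 and 401 CPM of Anxa1, and the cluster led by Alx4, Hhip and Rspo2 was 25, 69 and 13 cells. The largest fibroblast cluster, led by Pi16 and Tnxb, had 258, 175 and 287 CPM, again lowest in GelMA. With fibroblast clusters weighted to the same mix, the Anxa1 ratio was 0.75 for AN-GelMA over GelMA and -0.58 for GelMA over untreated, which is just within 1.5-fold. With the mean of per-cell CPM in place of sums, the fibroblast ratio of Anxa1 was 0.44, within 1.5-fold, and that of GelMA over untreated was -0.28 in place of -0.59. In keratinocytes the level was 320, 236 and 320 CPM, within 1.5-fold in each comparison. The keratinocyte class also sat in different clusters: that led by Tbx1 with Krt75 was 7.33%, 31.1% and 2.40% of it and that led by Sprr4 and Cst6 2.79%, 13.1% and 2.86%.

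**Figure D1:**
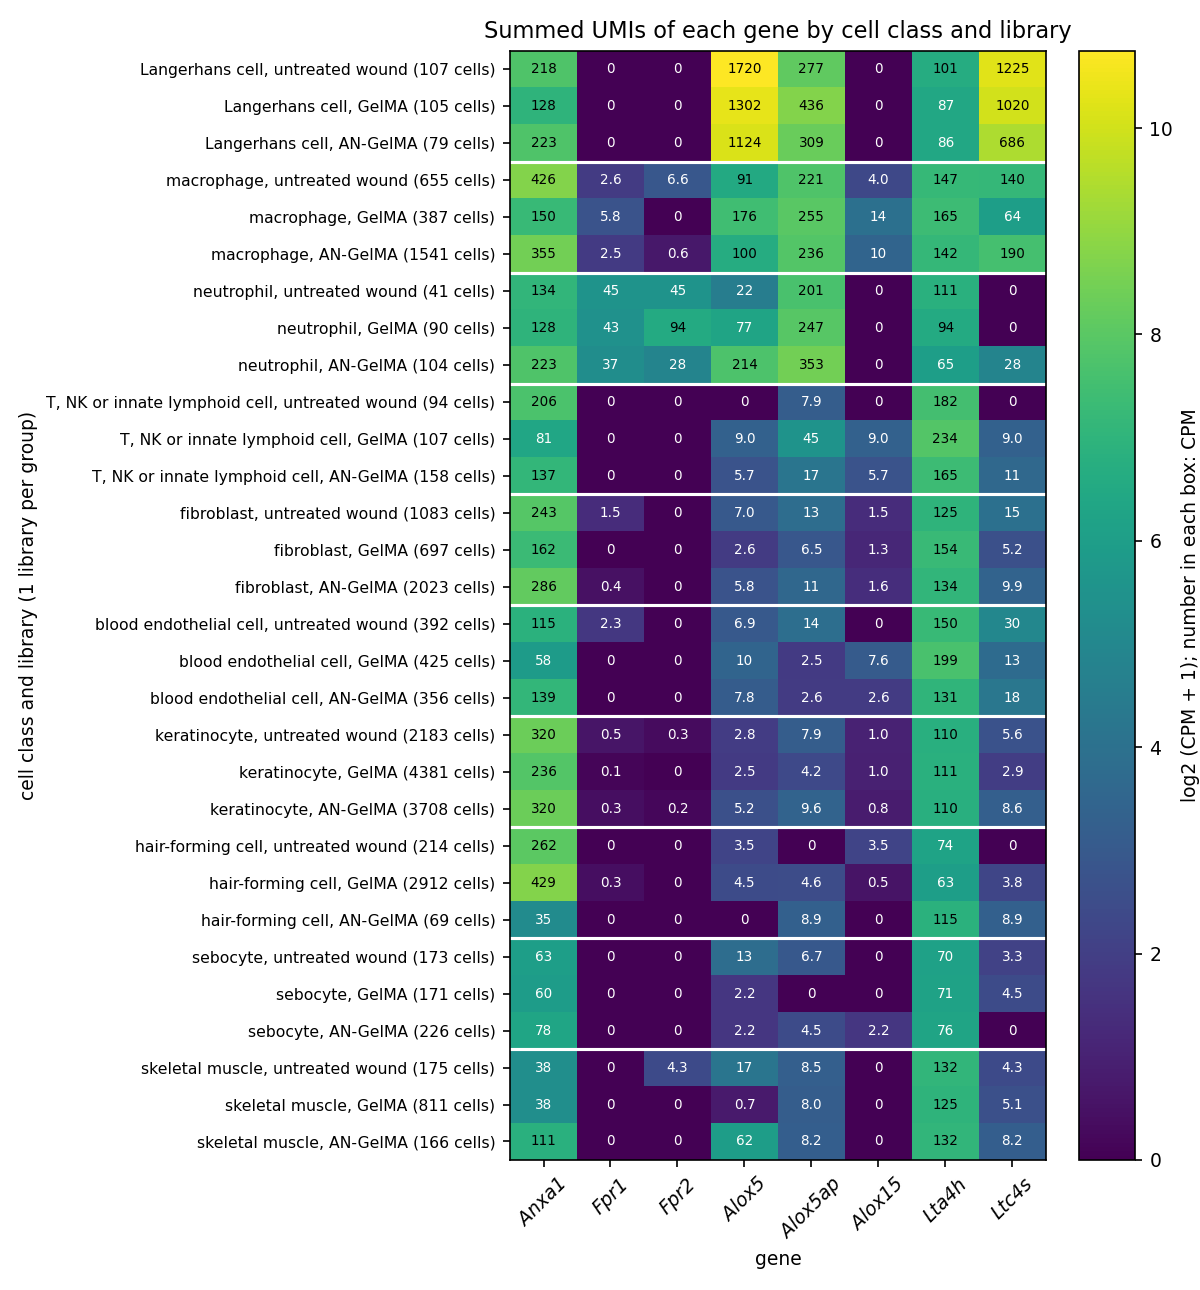
Levels of the 8 genes (columns) in 10 cell classes of the 3 libraries (rows, 1 library per group); colour is log2 (CPM + 1) and the number in each box is CPM. Alox5 and Ltc4s are highest in Langerhans cells (1720 and 1225 CPM in the untreated wound), Lta4h is present in all rows, and Fpr1 and Fpr2 stand out in neutrophils.

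Within macrophages Anxa1 was concentrated in the division led by Mmp12, Rgs1 and Gpnmb, genes of tissue-remodelling, lipid-loaded macrophages. There its level was 1223 [1073 to 1388], 474 [227.5 to 872] and 1212 [1076 to 1361] CPM. The division led by Cd209f, Cd209g and Cd163, genes of resident tissue macrophages, had 19.3, 41.9 and 114 CPM, and that led by Arg1 and F10 had 261, 107 and 332 CPM. The Mmp12 division counted 115, 16 and 132 cells, and its whole cluster made up 40.8%, 12.4% and 26.3% of macrophages. With the whole macrophage clusters, not their divisions, weighted to the same mix, the log2 ratio of Anxa1 was 0.72 for AN-GelMA over GelMA. That for GelMA over untreated was -0.53, which is no longer 1.5-fold. Without the Mmp12 division the ratios were 0.67 and -0.18. That of AN-GelMA over untreated turned from -0.26 to 0.19 with the same mix and to 0.49 without the division, within 1.5-fold each time. The 16 GelMA cells limit what can be seen inside the division. Another 16 Anxa1 UMIs of GelMA came from the 15 cells of the Spp1-led division, 9 of them from 1 cell, which put that division at 1031 CPM in this library against 208 and 315 in the others.

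**Figure D2:**
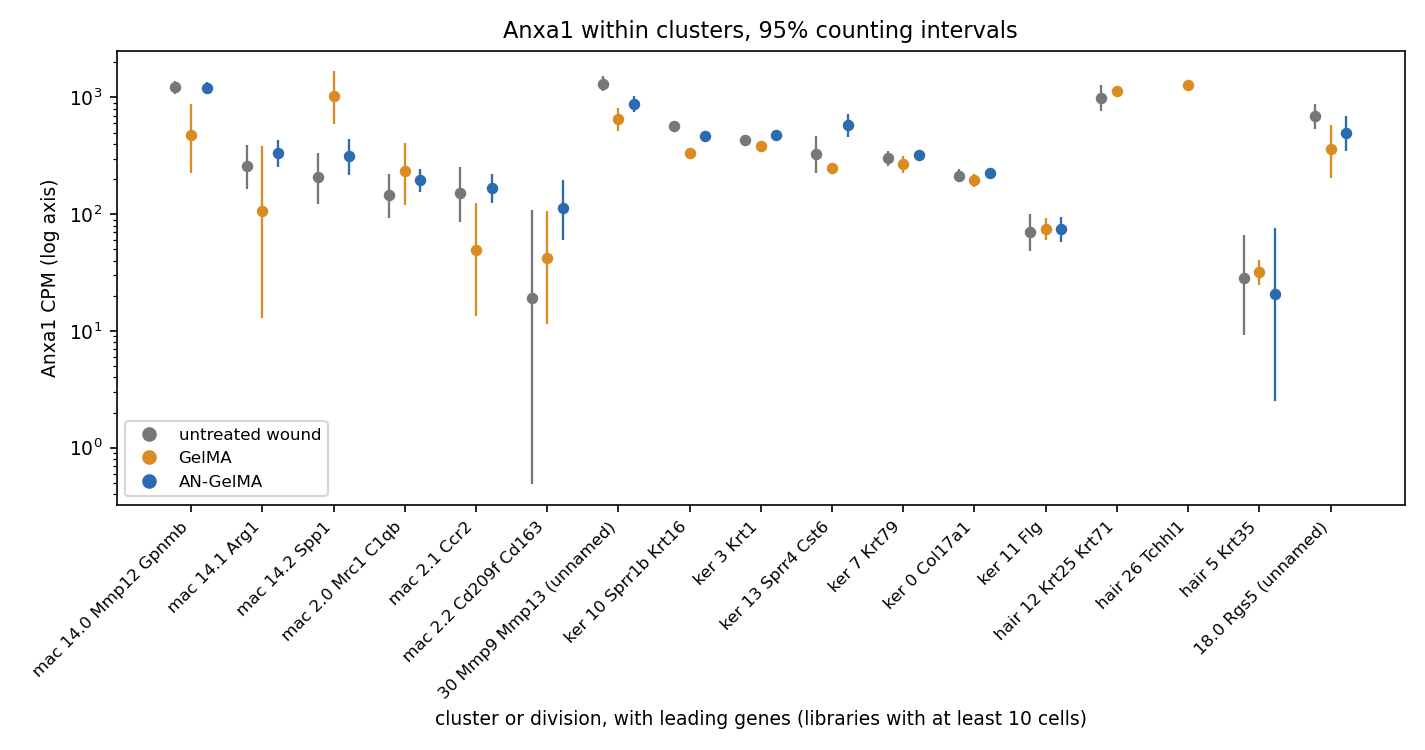
Anxa1 level (CPM, log axis) in clusters and divisions named by leading genes; points are libraries with at least 10 cells and bars are 95% counting intervals. The highest points are those of the Mmp12 macrophages, the GelMA point of the Spp1 macrophages (1031 CPM from 15 cells), the Mmp9 and Mmp13 cluster and the Krt25 and Tchhl1 hair clusters, and the Cd209f macrophages and the Krt35 hair cluster are among the lowest.

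Among epithelial cells, Anxa1 differed between kinds of keratinocyte. The basal cluster (Col17a1, Itgb4, Krt15) had 213, 195 and 224 CPM and the suprabasal cluster with Krt1 had 432, 381 and 473 CPM. The cluster led by Sprr1b and Krt16, keratins and envelope proteins of activated epidermis, had 571, 334 and 469 CPM. In the late cluster with Flg and Casp14, genes of the cornified layer, Anxa1 was low in all 3 libraries, at 70.6, 74.9 and 75.0 CPM. An unnamed cluster of 46, 35 and 64 cells led by Mmp9 and Mmp13, genes that keratinocytes at a wound edge are known for, had 1313 [1126 to 1521], 653 [519 to 812] and 877 [746 to 1024] CPM. In hair-forming cells the level was highest in a pair of clusters: Anxa1 had 998 and 1129 CPM in the untreated and GelMA cells of the cluster led by Krt25 and Krt71, keratins of the inner root sheath, and 1267 CPM in the 180 GelMA cells of the Tchhl1 cluster. Other inner root sheath cells had little: the 229 GelMA cells of the cluster led by Krt26 and Krt72 had 51.6 CPM, from 22 UMIs. The Krt35 cluster had 28.4, 32.0 and 20.9 CPM. AN-GelMA held only 5 cells of the Krt25 and Krt71 cluster, and its hair-forming class as a whole stood at 35.5 CPM against 429 in GelMA and 262 in the untreated wound; which part of the follicle was sampled and the treatment cannot be told apart. Outside the epithelium, an unnamed division led by the mural-cell gene Rgs5 had 695, 360 and 500 CPM.

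Some other annexins were also lowest in GelMA in macrophages. These values are sums over all macrophages and were not weighted to the same mix of clusters. The cluster led by Mmp12 and Rgs1 was 40.8%, 12.4% and 26.3% of the class, and the part of this mix in the values was not tested. Of the 11 other annexins and S100 partners with at least 20 UMIs, 4 were higher and 1 lower in AN-GelMA than in GelMA, where 29.8% of all 9065 features were past 1.5-fold either way, and the median log2 ratio was 0.42 against -0.09 over those features. Against the untreated wound, 1 of 10 was higher and 6 lower in GelMA, where 28.7% of 8006 features were past the limit, with a median of -0.74 against 0.07. Both comparisons share the GelMA library, so their opposite signs are not independent. Anxa2, a plasminogen-binding partner of S100a10, had 559, 304 and 519 CPM. Anxa4 had 616, 220 and 487 CPM, a log2 ratio of 1.15 [0.81 to 1.51] for AN-GelMA over GelMA. Anxa5, the phosphatidylserine binder used to stain apoptotic cells, had 249.0, 156 and 237 CPM, and Anxa11 had 102, 46.3 and 112 CPM. Anxa3 had 658, 344 and 444 CPM and S100a10 was lower in GelMA than in the untreated wound by a log2 ratio of -0.81 [-1.55 to -0.11]. A pair ran the other way: Anxa9 had 39.7, 60.8 and 47.6 CPM and Anxa8 4, 9 and 17 UMIs, a log2 ratio of 2.30 [0.46 to 4.45] for GelMA over untreated, so both were highest in GelMA.

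Other classes showed this order for some annexins and not for others. In fibroblasts Anxa2 had 538, 322 and 653 CPM, Anxa3 755, 330 and 717 CPM and Anxa6 363, 223 and 385 CPM, all lowest in GelMA. Anxa9 ran the other way, at 25.5, 47.0 and 16.9 CPM, and Anxa11 was 0.64 log2 units higher in GelMA than untreated [0.10 to 1.17], or 0.56, within 1.5-fold, with the clusters weighted to the same mix. Anxa8 was 1.30 units higher in AN-GelMA than untreated [0.34 to 2.39]. In keratinocytes Anxa4 had 152, 88.7 and 146 CPM, but with clusters weighted to the same mix its ratios came within 1.5-fold, at 0.54 for AN-GelMA over GelMA and -0.58 for GelMA over untreated. Against this order, Anxa3 had 55.8, 78.3 and 34.9 CPM, and S100a11 had 72.9, 113 and 57.4 CPM. With clusters weighted to the same mix the ratio of Anxa3 for GelMA over untreated was 0.14 in place of 0.49. For AN-GelMA over GelMA it was -0.88 in place of -1.17. Within the basal cluster Anxa3 had 91.7, 66.2 and 54.0 CPM, highest in the untreated wound. Within the Tbx1 and Krt75 cluster it had 73.9, 239 and 30.8 CPM, highest in GelMA. In endothelial cells Anxa6 was lowest in GelMA, at 196, 98.2 and 222 CPM, Anxa11 was highest there, at 55.4, 121 and 54.9 CPM, and Anxa5 had 198.5, 126 and 94.1 CPM. In Langerhans cells Anxa2 had 310.5, 121 and 472 CPM.

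Of 9 glucocorticoid-responsive genes with at least 20 UMIs in macrophages, listed because glucocorticoids induce annexin A1, 4 were higher and 1 lower in AN-GelMA than in GelMA, where 29.8% of all features were past 1.5-fold, 11.4% higher and 18.3% lower. Tsc22d3 (GILZ) had a log2 ratio of 0.92 [0.37 to 1.53], the clock gene Per1 0.98 [0.53 to 1.47], the phosphatase Dusp1 0.99 [0.67 to 1.33] and the mRNA-decay factor Zfp36 0.72 [0.53 to 0.92]. Fkbp5, which restrains the glucocorticoid receptor, went the other way, with 39.7, 98.4 and 38.8 CPM. Dusp1 and Zfp36 were also above the untreated wound, by 0.79 [0.58 to 1.02] and 0.69 [0.55 to 0.82], and Zbtb16 by 1.19 [0.23 to 2.27]. The list's median log2 ratio was 0.33 for AN-GelMA over GelMA, against -0.09 over all features, and -0.04 for GelMA over untreated, against 0.07. None of these ratios was weighted to the same mix of macrophage clusters, which differed between libraries.

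The formyl receptors were sparse: 56 UMIs of Fpr1 and 43 of Fpr2 in 25502 cells. Neutrophils, 41, 90 and 104 cells, held 2 of 21, 5 of 11 and 4 of 24 UMIs of Fpr1 and 2 of 23, 11 of 11 and 3 of 9 of Fpr2, so their share of the receptor RNA was largest in GelMA. Fpr1 in neutrophils was 44.6 [5.40 to 161], 42.6 [13.8 to 99.3] and 37.2 [10.1 to 95.2] CPM, with intervals that overlap across the 3 libraries. Fpr2 in neutrophils was 44.6 [5.40 to 161], 93.6 [46.7 to 167.5] and 27.9 [5.75 to 81.5] CPM, from 2, 11 and 3 UMIs, and a difference between libraries was not detectable at this depth. Of the 11 GelMA UMIs, 10 fell in 1 division of 37 cells led by Cxcl2 and Srgn, genes of activated neutrophils. In macrophages 2, 2 and 4 UMIs of Fpr1 and 5, 0 and 1 of Fpr2 were seen, and the share of keratinocytes, which should lack both, with a UMI of Fpr1 or of Fpr2 was at most 0.0916% for either. No UMI of either was seen in Langerhans cells, with upper limits of the intervals of 24.8 to 31.6 CPM. Unnamed cells held 44.6% of the Fpr1 and 41.9% of the Fpr2 UMIs, all of them in a cluster of 168, 7 and 105 cells led by Duxf3, Vmn1r91 and Spin2g. These are germline and vomeronasal genes that skin is not known to express, and the relatives Fpr-rs3 and Fpr-rs4 stood beside them at 22.02 and 28.5 CPM among unnamed cells of the untreated wound. No marker list named this cluster. The promoter windows of Fpr1 and Fpr2 had GC contents of 40.0% and 39.3%.

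Other receptors of the resolution axis were read for context. Cmklr1, the chemerin receptor that also binds resolvin E1, was the only one of 9 with at least 20 UMIs in macrophages, at 122, 127 and 125 CPM. Of 2 receptor ligands and annexin proteases with at least 20 UMIs in macrophages, Saa3, a serum amyloid A protein of the family that acts on Fpr2, had 21.2, 14.5 and 40.7 CPM, with a log2 ratio of 1.49 [0.20 to 3.16] for AN-GelMA over GelMA and 0.94 [0.14 to 1.83] over the untreated wound. Neither ratio was weighted to the same mix of macrophage clusters. In fibroblasts Cmklr1 had 15.5, 45.7 and 11.5 CPM, highest in GelMA, with a log2 ratio of 1.56 [0.73 to 2.43] over the untreated wound and -1.99 [-2.76 to -1.23] for AN-GelMA over GelMA. Lgr6, a maresin 1 receptor and follicle stem cell gene, had 45.5, 16.2 and 41.8 CPM in keratinocytes, and its ratio of GelMA over untreated was -1.02 with keratinocyte clusters weighted to the same mix in place of -1.49. No leukotriene receptor reached 20 UMIs in macrophages. In keratinocytes Ltb4r2, the low-affinity leukotriene B4 receptor that epidermis expresses, had 11.2, 39.6 [35.6 to 43.9] and 7.499 CPM, so GelMA stood above the others without overlap of the intervals. Within the suprabasal Krt1 cluster it had 20.5, 97.8 and 13.4 CPM and within the basal cluster 13.6, 41.1 and 7.17 CPM, and with clusters weighted to the same mix its log2 ratio was 1.93 for GelMA over untreated and -2.80 for AN-GelMA over GelMA, against 1.82 and -2.40 as summed. Ltb4r1, the high-affinity receptor, had 4.09, 5.72 and 2.76 CPM.

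The levels of Alox5 and Ltc4s were highest in Langerhans cells, the antigen-presenting cells of the epidermis. These 107, 105 and 79 cells were 1.87%, 0.983% and 0.869% of the cells and held 61.7%, 56.2% and 31.1% of the Alox5 UMIs and 45.8%, 56.7% and 16.1% of the Ltc4s UMIs. The more numerous macrophages held 20.8%, 17.7% and 37.8% of Alox5 and 33.2%, 8.21% and 61.0% of Ltc4s, so in AN-GelMA they held more of both than Langerhans cells did. Both genes were left out when cells were clustered. The class carried its defining genes Cd207 (713, 994 and 463 CPM) and H2-M5 (2534, 1933 and 1484 CPM), and Lyz2 and Fcgr1 of the macrophage markers were at 0 in each library. Alox5 was 1720 [1493 to 1973], 1302 [1125 to 1499] and 1124 [939 to 1333] CPM there, and Ltc4s 1225 [1035 to 1441], 1020 [865 to 1196] and 686 [544 to 854] CPM. The untreated wound was highest and AN-GelMA lowest for both, and the lowest Langerhans level lay above the highest macrophage level. A UMI of Alox5 was seen in 71.0%, 76.2% and 74.7% of Langerhans cells with median depths of 790, 1286 and 954 UMIs, and in 0.458%, 0.525% and 0.809% of keratinocytes with medians of 1353, 1639 and 1408, a reference for a type that should have little of it. Both Alox5 and Ltc4s were seen in 47.7%, 49.5% and 40.5% of the Langerhans cells.

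Of 5 members with a fold in Langerhans cells, 2 were lower in AN-GelMA than in the untreated wound, where 15.9% of 3707 features with at least 20 UMIs were lower by 1.5-fold or more: Alox5 by a log2 ratio of -0.61 [-0.94 to -0.29] and Ltc4s by -0.84 [-1.25 to -0.43]. In AN-GelMA over GelMA 1 of 5, Anxa1, was higher, against 21.7% of features, and in GelMA over untreated 2 of 5, Anxa1 and Alox5ap, were past the limit, against 36.6% either way. Alox5ap, the helper protein, did not follow Alox5: it had 277, 436 and 309 CPM, 0.66 higher in GelMA than untreated [0.03 to 1.31]. RNA of keratinocyte markers in these cells was highest in AN-GelMA, where Alox5 and Ltc4s were lowest: the 17 markers summed to 4985, 1208 and 11900 CPM, with 1, 2 and 1 of them at 0. The 14 hair markers summed to 210, 2584 and 34.3 CPM. The part of this RNA in the differences was not tested. The other export and breakdown genes in Langerhans cells included Dpep2, a leukotriene D4 dipeptidase, at 764, 517 and 429 CPM, and the exporter Abcc1, at 529, 483 and 575 CPM, while Ggt5 and the leukotriene B4 hydroxylase Cyp4f18 had at most 5 UMIs per library.

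**Figure D3:**
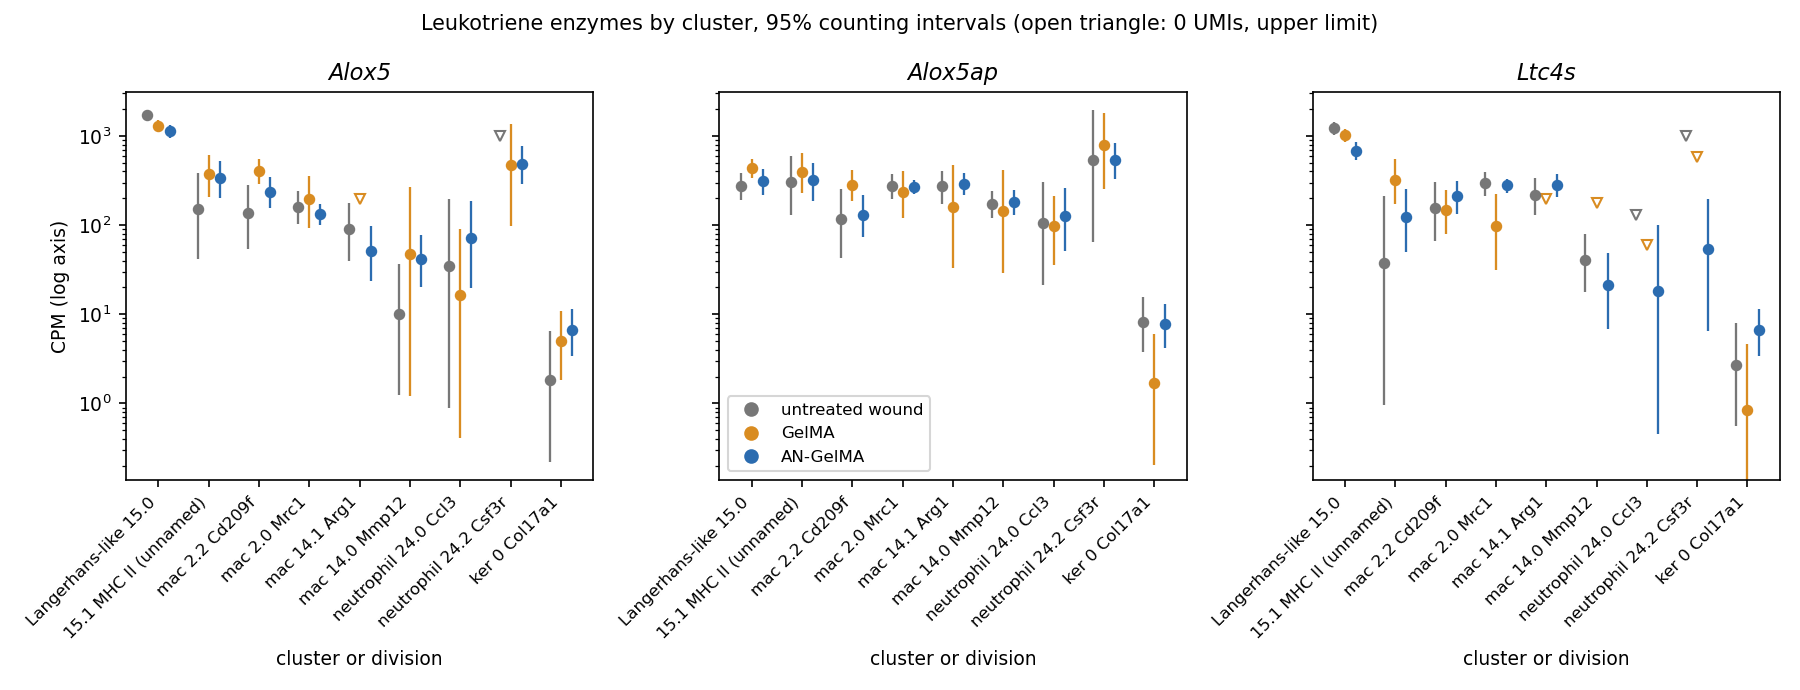
Alox5, Alox5ap and Ltc4s (CPM, log axis) in 9 clusters or divisions; points are libraries, bars 95% counting intervals and open triangles the upper limit where 0 UMIs were seen. Alox5 and Ltc4s are highest in Langerhans cells and low in Mmp12 macrophages, Alox5ap is of like level in the myeloid divisions, and basal keratinocytes lie near the bottom.

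The rest of the dendritic cluster had less. A division with MHC class II genes and Cd209c, left unnamed, had Alox5 at 151, 373.5 and 336.1 CPM and Ltc4s at 37.8, 324 and 124 CPM from 30, 30 and 70 cells. The Clec9a division, marked by genes of conventional type 1 dendritic cells, held only 18, 10 and 38 cells. It had no Alox5 UMI in any library but had Alox5ap at 196.5, 634 and 371 CPM, from 17 positive cells in all.

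In macrophages the GelMA library stood at opposite ends for Ltc4s and Alox5, while AN-GelMA lay above the untreated wound for both, within 1.5-fold. Ltc4s was 140 [115 to 170], 63.6 [39.9 to 96.3] and 190 [169 to 212] CPM, lowest in GelMA, and Alox5 was 91.4 [71.1 to 116], 176.5 [135 to 227] and 99.6 [84.7 to 116] CPM, highest in GelMA. The log2 ratio of AN-GelMA over GelMA was 1.58 [0.95 to 2.27] for Ltc4s and -0.83 [-1.26 to -0.37] for Alox5, and that of GelMA over untreated was -1.14 [-1.88 to -0.47] and 0.95 [0.43 to 1.47]. Alox5ap was even, at 221, 255 and 236 CPM, and so was Lta4h, at 147, 165 and 142 CPM. Alox15 had 3, 5 and 16 UMIs, 7 of them in 1 cell. Over all members with a fold, 2 of 7 were higher and 2 lower in AN-GelMA than in GelMA, where 29.8% of features were past 1.5-fold. In GelMA over untreated 2 were higher and 2 lower of 7, against 28.7% of features, and in AN-GelMA over untreated 1 was higher and 1 lower of 8, against 16.1%. Counting only members with at least 20 UMIs, 3 of 6, 3 of 5 and 0 of 5 were past the limit.

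**Figure D4:**
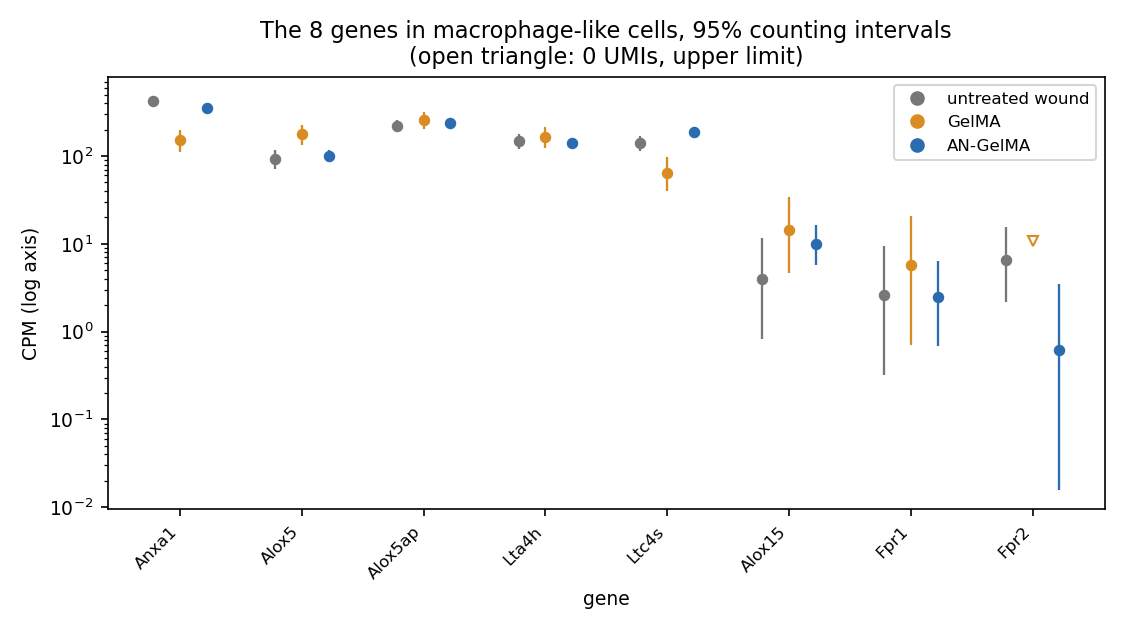
The 8 genes in macrophages (CPM, log axis) in the 3 libraries, with 95% counting intervals; the open triangle is the upper limit for Fpr2 in GelMA, where 0 UMIs were seen. Anxa1 and Ltc4s are lowest in GelMA and Alox5 is highest there, while Alox5ap and Lta4h lie close together.

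This place of GelMA held inside macrophage divisions only in part. In GelMA and AN-GelMA Alox5 was highest in the Cd209f and Cd163 division, which had 135 [54.4 to 279], 408 [290 to 558] and 236 [156 to 344] CPM. In the untreated wound the Ms4a8a division, at 195 [78.3 to 401] CPM, and the Mrc1 and C1qb division, at 160 [103 to 238] CPM, lay above it with overlapping intervals. Alox5 was low in the Mmp12 division, at 10.2, 47.4 and 42.2 CPM. The Cd209f division held 50, 112 and 112 cells of 655, 387 and 1541 macrophages. With clusters weighted to the same mix the log2 ratio of Alox5 for GelMA over untreated was 0.43, and with cells thinned to 800 UMIs 0.47. Both lie within 1.5-fold. For AN-GelMA over GelMA the thinned ratio of Alox5 was -0.40, and it was -0.57 with each cell given the class of its highest marker score, again within 1.5-fold. Under the same weighting the ratio of Ltc4s was 1.82 for AN-GelMA over GelMA and -1.55 for GelMA over untreated. The latter was -0.56, within 1.5-fold, among cells with at least 1000 UMIs. Only whole clusters were weighted, so the mix of divisions inside them still differed between libraries, and ratios at an equal mix of divisions were not formed. In the untreated and AN-GelMA libraries Ltc4s was highest in the Ms4a8a division, which had 334, 0 and 464 CPM from 34, 9 and 101 cells. The Mrc1 and C1qb division had 294, 97.0 and 278 CPM. In GelMA the Cd209f division was the highest, with 155, 146 and 210 CPM across the libraries. Another division was led by Ccr2, a gene of blood-derived monocytes, and by MHC class II genes such as H2-Aa and H2-Eb1. There Ltc4s had 9, 0 and 31 UMIs in 95, 88 and 321 cells. The Mmp12 division had little Ltc4s, at 40.8, 0 and 21.1 CPM, although it was richest in Anxa1. Alox5 and Ltc4s were seen in the same macrophage in 6, 3 and 31 cells, 0.916%, 0.775% and 2.01%. The defining Langerhans genes were near 0 in macrophages: Cd207 had 1, 3 and 4 UMIs and H2-M5 1, 0 and 3. The 17 keratinocyte markers summed to 563, 1348 and 708 CPM in macrophages, highest in GelMA, and their part was not tested.

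Genes of leukotriene export and breakdown also stood on both sides. Of 7 export and breakdown genes with at least 20 UMIs in macrophages, 3 were higher and 2 lower in AN-GelMA than in GelMA, and 2 higher and 3 lower in GelMA than in the untreated wound, against 29.8% and 28.7% of all features past the limit either way. The list's median log2 ratios were 0.44 and -0.43, against -0.09 and 0.07. Ggt5, which turns leukotriene C4 into D4, had 39.7, 176.5 and 75.8 CPM, highest in GelMA by a log2 ratio of 2.15 [1.498 to 2.83] over the untreated wound. Dpep2, which turns leukotriene D4 into E4, had 354, 150 and 359.5 CPM, lowest in GelMA by -1.23 [-1.69 to -0.80]. Its relative Dpep3 had 95.4, 17.4 and 67.7 CPM. Cyp4f18, which inactivates leukotriene B4, had 90.1, 191 and 118 CPM. AN-GelMA over the untreated wound passed the limit for Ggt5 alone of these 4, by 0.93 [0.34 to 1.56]. Gpx1, a glutathione peroxidase that reduces lipid hydroperoxides, had 84.8, 107 and 140 CPM, higher in AN-GelMA than untreated by 0.73 [0.32 to 1.15]. Pla2g4a, the phospholipase that releases arachidonic acid, had 136, 107 and 142 CPM. The values in this paragraph were not weighted to the same mix of macrophage clusters, and the part of the mix in them was not tested.

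**Figure D5:**
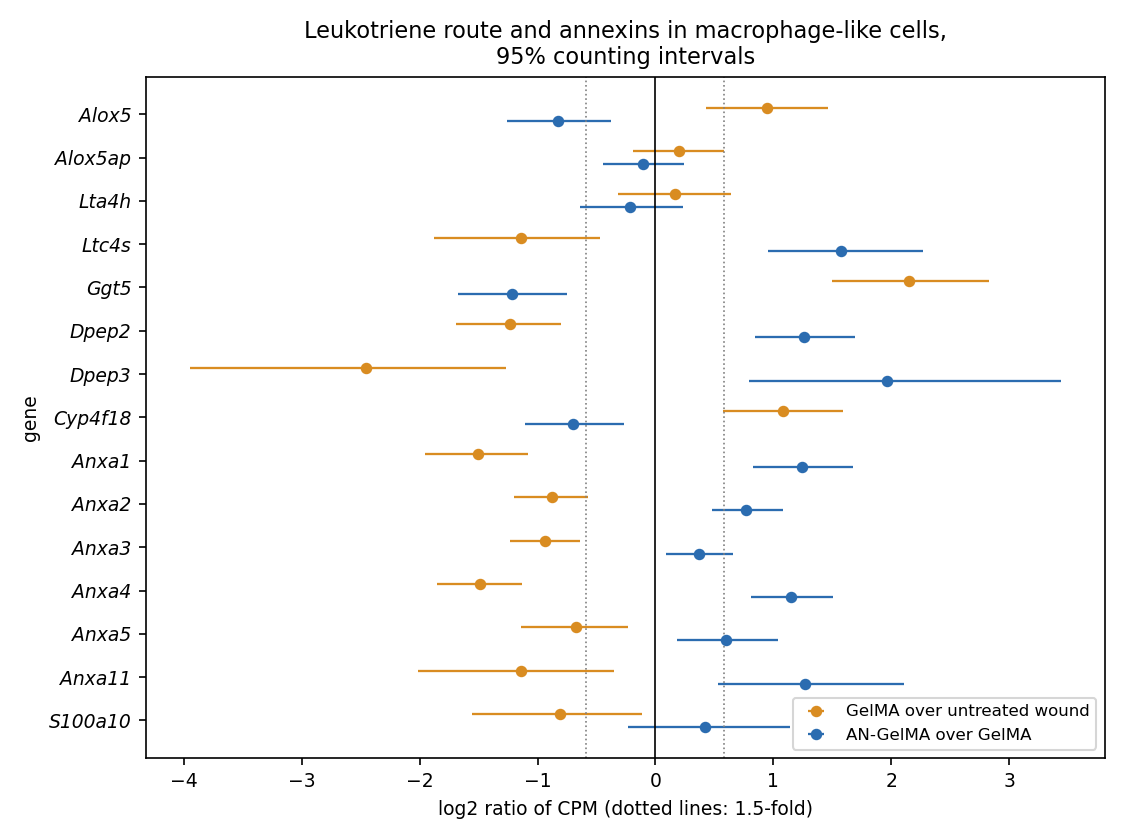
Log2 ratios of CPM in macrophages for leukotriene genes and annexins, with 95% counting intervals and dotted lines at 1.5-fold; orange is GelMA over untreated and blue AN-GelMA over GelMA, which share the GelMA library. Alox5, Ggt5 and Cyp4f18 are higher in GelMA, Ltc4s, Dpep2, Dpep3 and the annexins shown lower, and Alox5ap and Lta4h lie near 0. The ratios are not weighted to the same mix of clusters.

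In neutrophils Alox5ap was 201, 247 and 353 CPM with overlapping intervals. Lta4h, the enzyme of the leukotriene B4 branch, had 5, 11 and 7 UMIs, or 111, 93.6 and 65.1 CPM, and Ltc4s had 0, 0 and 3 UMIs. Alox5 was 22.3 [0.56 to 124], 76.6 [35.0 to 145] and 214 [135.5 to 321] CPM, a log2 ratio of 1.48 [0.31 to 2.78] for AN-GelMA over GelMA. It was 1 of 3 members past the limit there of 6 with a fold, and of 2 among the 3 members with at least 20 UMIs, against 42.8% of features. In AN-GelMA 18 of the 23 Alox5 UMIs lay in the division led by Csf3r, the receptor for the growth factor G-CSF, at 489 CPM. In GelMA 3 of 9 lay there, from 2 cells, and 5 in the Cxcl2 and Srgn division. The Csf3r division held 6, 9 and 47 of the 41, 90 and 104 neutrophils, and no comparison with the untreated wound was made since it had under 50 neutrophils. Keratinocyte markers in neutrophils summed to 4769, 7678 and 10490 CPM, and their part was not tested. With cells thinned to 800 UMIs, Alox5 was seen in 3 of 48 GelMA and 1 of 45 AN-GelMA neutrophils, against 6 of 90 and 16 of 104 before, so the order of the shares turned and none is read from them.

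Lta4h was the evenly spread enzyme. Its mean level over libraries ran from 72.5 CPM in sebocytes to 194 CPM in T, NK or innate lymphoid cells, through 151 in macrophages and 138 in fibroblasts, and neighbours in this order of 9 classes overlapped across libraries except skeletal muscle with keratinocytes and keratinocytes with Langerhans cells. Keratinocytes had 110, 111 and 110 CPM and held 47.3% of its UMIs. The melanocyte class, too small in 2 libraries to enter the order, had 406 [202.5 to 726], 241 [191 to 299] and 398 [236 to 629] CPM. In endothelial cells Lta4h was 150, 199 and 131 CPM, lower in AN-GelMA than in GelMA by -0.61 [-1.15 to -0.08].

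In classes with little of the leukotriene enzymes the calls rest on low levels. The shares of features given here are over features with at least 20 UMIs, and members below that are counted as well unless said. In keratinocytes 3 of 6 members were higher in AN-GelMA than in GelMA, against 6.96% of features: Alox5 (2.81, 2.53 and 5.20 CPM), Alox5ap (7.93, 4.18 and 9.64 CPM) and Ltc4s (5.63, 2.86 and 8.57 CPM). Macrophage markers in keratinocytes summed to 319, 329 and 352 CPM and Langerhans markers to 343, 359 and 418 CPM, and their part was not tested. In GelMA over untreated 2 of 6 were lower, against 7.42%, and in AN-GelMA over untreated 2 of 6 higher, against 2.25%. In fibroblasts 4 of 6 were higher in AN-GelMA than in GelMA, against 10.1% of features, and 4 of 5 lower in GelMA than untreated, against 9.76%. Those called were Anxa1, Alox5, Alox5ap and Ltc4s, and the last 3 had 2 to 27 UMIs per library. With at least 20 UMIs, 3 of 4 were called in each. With clusters weighted to the same mix Alox5 was within 1.5-fold in both comparisons. None of 6 was past the limit in AN-GelMA over untreated, against 11.4% either way. In endothelial cells 1 of 4 was higher and 1 lower in AN-GelMA than in GelMA, against 29.4% either way, 3 of 5 lower in GelMA than untreated, against 12.3%, and 2 of 4 lower in AN-GelMA than untreated, against 8.74%. With at least 20 UMIs these counts were 2 of 2, 1 of 2 and 1 of 3. Except for Anxa1 and Lta4h, the members called had 1 to 13 UMIs per library. Alox5 in skeletal muscle was 17.1, 0.726 and 61.9 CPM, from 4, 1 and 15 UMIs. All 4 untreated and 13 of the 15 AN-GelMA UMIs lay in the cluster led by Msln, Myl4 and Myh3, the last an embryonic myosin, which was 57 of 175, 34 of 811 and 62 of 166 muscle cells.

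The features most alike each gene across 32 class and library units, by Pearson's r of log2 (CPM + 10) over 10235 features, were read as a description, since units of a library share its depth. Alox5 was most like Dok3 (0.94), Nceh1 (0.89) and Dpep2 (0.89), and Ltc4s like Card9 (0.89), Dpep2 (0.88) and Slc36a2 (0.87), so both lists held Dpep2. Alox5ap was most like Spi1 (0.97), which encodes PU.1, and the myeloid gene Tyrobp (0.95). Lta4h was most like Apobec3 (0.75), Ldlrad4 (0.72) and Ets1 (0.72), and Anxa1 like Tmem43 (0.73), Ahnak (0.70) and Ctsh (0.69). Fpr1, Fpr2 and Alox15 had too few UMIs.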

How the data were processed

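The deposited files hold counts, the UMIs of each feature in each barcode. Per the file headers the authors ran Cell Ranger 10.0.0, and the submitters' processing notes name GRCm39 and mm39. Libraries were made with the 10x Genomics GEM-X Flex v2 kit and sequenced on a NovaSeq X, per the labels' protocols. A gene is seen only through its probes, and probe efficiency differs between genes, so levels are compared between classes and libraries rather than between genes. The 8 genes, the marker sets, the 9 pathway lists (76 genes with a probe) and the tests were chosen with earlier results of these data known.

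Cells were required to have 400 UMIs, 250 genes and no more than 10% of UMIs from mitochondria. Scrublet called 0 doublets, so the 5% of cells with the highest score were removed. Clusters came from 2000 variable genes without the 8 genes and the lists, 30 components, 15 neighbours and Leiden resolution 1 (scanpy 1.11.5), divided once more at 0.5. A cluster took a class name where its markers scored 1.5 log2 units or more and led every other class by 0.5, and 3 or more of them stood 2 log2 units above the lower quartile of clusters at 50 CPM or more. It stayed unnamed where another class also scored 2.5 or more with 5 such markers and lay within 2.5 units, or had more markers among the 10 leading genes. A division also needed 50 cells and a marker of its own among those 10. Cd74, H2-Ab1, Ctss and Itgax were left out of the scores, being shared by several classes. The form of this rule was set after the cluster tables were seen. Unnamed cells were 8.74%, 3.19% and 5.83% of the libraries.

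Counts were summed by class and library and divided by the class total (CPM). Intervals are exact Poisson for levels, exact binomial (Clopper-Pearson) for shares and exact conditional for ratios, at 95%, and cover counting error only. Comparisons were limited to classes with 50 or more cells in each of the libraries compared. With 0 UMIs in a library, 3 were used as the floor and the ratio is a bound; no ratio was formed where both had at most 3. The named genes are the 8 members, list genes with at least 50 UMIs in macrophages past 1.5-fold with an interval that leaves out 0, and in other classes such receptors and annexins. Other genes and clusters were named after their values were seen. A few genes that the rule would name are not reported here. The ratios and intervals were run on simulated independent counts, the model they assume. This checks the computation only and cannot show how they hold where UMIs gather in a few cells. Alternatives in cells, clustering, scaling, depth and limits are given at the end. Coordinates of the measured features were not used here, since the annotation at hand is of another build than the files.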

Additional observations from a re-analysis of the deposited data

Results flagged for a closer look

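Some genes stood on opposite sides of 1.5-fold in different cell classes under the same comparison, with at least 20 UMIs and intervals that leave out 0; the differences between classes were not tested. For AN-GelMA over GelMA, the log2 ratio of Anxa1 was 1.26 in blood endothelial cells, 0.82 in fibroblasts, 1.24 in macrophages and 1.53 in skeletal muscle, but -3.60 in hair-forming cells, where AN-GelMA had 4 UMIs in 69 cells. For AN-GelMA over the untreated wound, Anxa1 was at -2.89 in hair-forming cells and 1.54 in skeletal muscle. The skeletal muscle class sat in different clusters by library, with 32.6%, 4.19% and 37.3% of its cells in the Msln, Myl4 and Myh3 cluster, and with clusters weighted to the same mix the muscle ratios were 0.83 and 1.92. For GelMA over the untreated wound, Anxa1 was at -1.35 in T, NK or innate lymphoid cells, -0.99 in blood endothelial cells, -0.59 in fibroblasts and -1.50 in macrophages, and at 0.71 in hair-forming cells. Alox5 for AN-GelMA over GelMA was at 1.04 in keratinocytes and 1.48 in neutrophils but -0.83 in macrophages. Alox5ap for GelMA over the untreated wound was at 0.66 in Langerhans cells and -0.92 in keratinocytes.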

How the results depend on the processing

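No paired analysis was possible because the 3 groups hold a single library apiece. Of 609 member ratios under the alternatives, 583 moved by less than their counting interval, 22 moved further, and 4 ratios past the limit changed sign and came within it: Alox5 in keratinocytes, AN-GelMA over untreated, was at -0.0653 with doublets kept, Ltc4s there at -0.0666 with cells thinned to 800 UMIs, and Ltc4s in endothelial cells at 0.0746 with doublets kept and 0.0494 with the mean of per-cell CPM. Intervals of sparse genes are wide, so a ratio can stay inside its interval and still lose its call. Alox5 in fibroblasts, AN-GelMA over GelMA, went from 1.14 [-0.98 to 4.32] to 0.15 with clusters weighted to the same mix. Of 135 counts of members past the limit, 95 stayed within 1.5 times. The others follow, where the first count is AN-GelMA over GelMA, the second is GelMA over untreated and the last is AN-GelMA over untreated. In macrophages the first count fell from 4 to 2 with classes given by cell. The second fell from 4 to 2 with at least 1000 UMIs per cell, with thinned cells and with clusters weighted to the same mix. The last fell from 2 to 0 with at least 1000 UMIs or thinned cells, and to 1 with at least 10 UMIs of a gene or, an alternative chosen after seeing the data, without the cell with most UMIs. In fibroblasts the first fell from 4 to 2 with thinned cells or per-cell CPM and to 1 at a limit of 2-fold. The last rose from 0 to 2 with at least 1000 UMIs, doublets kept or per-cell CPM, to 3 with classes by cell and to 1 with thinned cells. With clusters weighted to the same mix, chosen after seeing the data outside macrophages, the fibroblast counts were 3, 2 in place of 4, and 1 in place of 0. In keratinocytes doublets gave 5 in place of 3, 4 in place of 2 and 0 in place of 2, a limit of 2-fold gave 0 for the second and last, and the last was 1 with at least 1000 UMIs, classes by cell, the genes kept for clustering, Leiden resolution 2 or thinned cells. In endothelial cells the first went from 2 to 1 with at least 1000 UMIs or a limit of 2-fold and to 4 with classes by cell or per-cell CPM, the second from 3 to 1 with thinned cells, and the last from 2 to 1 with at least 1000 UMIs, doublets kept, classes by cell, thinned cells, per-cell CPM, a limit of 2-fold or at least 10 UMIs. The causes were not tested.

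With doublets kept, 32 of 36 levels stayed within their interval. Alox5 in GelMA Langerhans cells was 1094 CPM, Anxa1 in keratinocytes 351 CPM untreated and 334.5 CPM in AN-GelMA, and Alox5 in untreated keratinocytes 5.42 CPM. Thinning cut the share of Langerhans cells with an Alox5 UMI to 53.85% in GelMA and 56% in AN-GelMA, with an Ltc4s UMI to 48%, 48.7% and 40%, and with an Alox5ap UMI to 14% and 28.2% in the untreated and GelMA wounds, and that of AN-GelMA macrophages with Anxa1 to 16.3%. Each group is 1 library, so no spread between animals is known, and Fpr1, Fpr2 and Alox15 are too sparse for differences between libraries to be detectable.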
